A study of Mus musculus with 62 samples.

Results

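The transcripts of 5 neuropeptide genes, Oxt, Avp, Gal, Trh and Cartpt, were followed through 62 BRB-seq libraries from the nucleus accumbens (NAc) and the prefrontal cortex (PFC) of mice. The genes were taken by their Ensembl identifiers from a table of 11121 counted genes. They were selected on measured values, since they were far more abundant in the NAc than in the PFC libraries and because some of them rose and fell together between NAc libraries. Those 2 features are therefore described here without a test. The animals were male wild-type C57BL/6j mice aged 15 weeks, either unstressed controls (CTR) or mice given multimodal chronic restraint stress (mCRS), a protocol of repeated restraint sessions. There were 16 NAc libraries of CTR mice, 16 of mCRS mice, 15 PFC libraries of CTR mice and 15 of mCRS mice. A library stands for tissue dissected from 1 hemisphere of 1 mouse, and the paper counterbalanced the hemispheres over samples. Which hemisphere a library came from, and which PFC and NAc libraries share a mouse, is not stated.

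Oxytocin (Oxt) and vasopressin (Avp) are made, among other sites, by magnocellular and parvocellular neurons of the paraventricular and supraoptic nuclei of the hypothalamus. The axons of these neurons run to the pituitary and to forebrain targets. Each peptide is cut from a precursor that also holds a neurophysin, and the cell bodies hold most of the mRNA. Galanin (Gal) is a peptide of hypothalamic and preoptic neurons and of some brainstem neurons. Thyrotropin-releasing hormone (Trh) starts the thyroid axis from the paraventricular nucleus and is also found elsewhere in the forebrain. Cartpt encodes the precursor of the CART peptides, which are made in the hypothalamus and also by neurons of the NAc itself, above all in its shell.

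Oxt (ENSMUSG00000027301) lies at chr2:130576173-130577054 on the plus strand of GRCm38, and Avp (ENSMUSG00000037727) at chr2:130580620-130582554 on the minus strand. The 2 genes point at each other across a gap of 3565 bases that holds 0 annotated genes. Gal (ENSMUSG00000024907) lies at chr19:3409915-3414544, Trh (ENSMUSG00000005892) at chr6:92242061-92244650 and Cartpt (ENSMUSG00000021647) at chr13:99898489-99901091, each on the minus strand. No other annotated gene overlaps any of the 5. Because Oxt and Avp arose from one ancestral gene, their annotated transcripts share sequence. Of all stretches of 70 bases, the length sequenced, 12.4% of those in Oxt (58 of 468) also occur in Avp, and 11.4% of those in Avp (58 of 508) occur in Oxt. Reads from there cannot be assigned uniquely. The transcripts of Gal, Trh and Cartpt had no such copies.

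As Oxt and Avp are the pair whose levels moved together most closely, the 250 bases before the start of each are shown (RefSeq, GRCm38.p6). The Oxt promoter is chr2:130575919-130576168 on the plus strand, with matches to the nuclear receptor half-site AGGTCA in capitals. The Avp promoter is chr2:130582589-130582838 on the minus strand, with the E-box letters CACGTG and CAGGTG, on either strand, in capitals.
Oxt: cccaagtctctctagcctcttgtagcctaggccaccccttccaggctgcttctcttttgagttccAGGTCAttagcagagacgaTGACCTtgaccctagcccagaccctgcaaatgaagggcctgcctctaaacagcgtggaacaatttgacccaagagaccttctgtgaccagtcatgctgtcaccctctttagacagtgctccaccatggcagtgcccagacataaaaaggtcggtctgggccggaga
Avp: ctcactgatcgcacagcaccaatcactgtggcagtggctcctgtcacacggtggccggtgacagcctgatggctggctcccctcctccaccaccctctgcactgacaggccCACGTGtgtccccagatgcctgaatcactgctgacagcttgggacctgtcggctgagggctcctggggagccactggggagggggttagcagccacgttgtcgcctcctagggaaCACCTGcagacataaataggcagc
In the Oxt promoter AGGTCA began 185 bases before the start on the same strand, and 166 bases before it on the opposite strand, where it reads TGACCT. In the Avp promoter CACGTG began 139 bases before the start, and CAGGTG was met 24 bases before it on the opposite strand, where it reads CACCTG. The Avp start used here is that of RefSeq and lies upstream of the annotated start of the gene, chr2:130582554. Sequence just after the RefSeq start matched 0 annotated Avp transcripts, against 1 for Oxt, so distances from the annotated Avp start are longer. Over 32851 promoters of the same length, 14.02% held AGGTCA, 6.02% held CACGTG and 17.22% held CAGGTG on either strand. None of the 3 motifs was present in both of these promoters, and the cyclic AMP response element TGACGTCA, held by 1.55% of promoters, was in neither.

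Library totals lay between 945286 and 4857359 counts, with medians of 2884276.5 in NAc CTR, 2615250.5 in NAc mCRS, 2398072 in PFC CTR and 1966931 in PFC mCRS libraries. A count of 0 thus allowed a level of up to 0.618 to 3.17 CPM (counts scaled to equal library totals), taking 3 counts as the limit. These limits cover counting error only, since reads were counted without molecular identifiers. One library went against its label. In the library labelled NAc CTR 7, with 2282186 counts, the mean log2 CPM of 27 genes of striatal projection neurons was 5.26, against 7.24 to 8.84 in the other 31 NAc libraries and 4.68 to 6.48 in the PFC libraries. Drd1, the dopamine receptor of direct-pathway neurons, had 1 count there, or 0.438 CPM, where the other NAc libraries held 64.9 to 272 CPM. Penk, which encodes enkephalin, stood at 151 CPM against 1009 to 3275 CPM. Slc17a7, the glutamate transporter of cortical neurons, was at 25.4 CPM, below the PFC range of 218 to 1005 CPM. The tissue of this library therefore resembled neither dissection by these markers, and the results below are given with it and without it. In another library, NAc mCRS 10, the choroid plexus gene Ttr reached 22731 CPM against at most 325 CPM in the other NAc libraries.

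Oxt differed widely from library to library in the NAc. In the NAc CTR libraries Oxt ranged from 0 through a median of 95.003 CPM to 1568 CPM, and in the NAc mCRS libraries from 0 through 85.2 to 588 CPM. The PFC libraries held 0 to 9.90 CPM (median 0) in CTR and 0 to 27.4 CPM (median 0.542) in mCRS mice. A count of Oxt was present in 29 of 32 NAc libraries and in 15 of 30 PFC libraries, and 20 NAc libraries lay above the highest PFC library. The ranges thus overlapped at their lower end, where NAc CTR 1, NAc mCRS 3 and NAc mCRS 6 had 0 counts. The library labelled NAc CTR 7 held 3579 of the 14920 NAc counts (24.0%), and the 5 richest libraries together held 62.8%. The pooled level in the NAc was 61.4 times that in the PFC, and 47.9 times without that library. In a bulk sample, more cells of a type cannot be told apart from more RNA per cell.

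Avp followed the same course. Its NAc CTR libraries ranged from 0 through a median of 85.9 to 985 CPM, and its NAc mCRS libraries from 0 through 228 to 450 CPM. In the PFC the highest values were 8.19 CPM in CTR and 17.7 CPM in mCRS mice, with medians of 0 and 0.633 CPM. Counts were present in 28 of 32 NAc and 16 of 30 PFC libraries, and 22 NAc libraries lay above all PFC libraries. NAc CTR 1, NAc CTR 10, NAc mCRS 6 and NAc mCRS 12 had none. The library labelled NAc CTR 7 was again the highest, with 2249 counts or 13.8% of the NAc total. The pooled ratio of NAc to PFC was 90.9, and 80.4 without it.

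Galanin and Trh were much scarcer and overlapped further with the PFC. Gal ranged from 0 through 12.2 to 190 CPM in NAc CTR and from 0 through 7.15 to 41.7 CPM in NAc mCRS libraries. Its PFC values reached 44.8 CPM in CTR and 23.4 CPM in mCRS mice, with both medians at 0, and only 5 NAc libraries exceeded the highest PFC value. In the NAc, 26 of 32 libraries held a count of Gal, and in the PFC 6 of 30. The pooled ratio of NAc to PFC was 6.44 for Gal, and 5.24 without the library labelled NAc CTR 7, which held 20.7% of the NAc counts. Trh ranged from 0.211 through 10.2 to 70.5 CPM in NAc CTR and from 0 through 14.3 to 64.4 CPM in NAc mCRS libraries. Trh was counted in 30 of 32 NAc and 8 of 30 PFC libraries, and 11 NAc libraries exceeded the PFC maximum of 17.7 CPM. The pooled ratio for Trh was 19.8, and 18.3 without the library labelled NAc CTR 7. For both genes most PFC libraries were empty and most NAc libraries were not.

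Cartpt was the one member counted in every NAc library. It ranged from 36.1 through 150 to 231 CPM in NAc CTR libraries and from 4.27 through 122 to 257 CPM in NAc mCRS libraries. The lowest of these was NAc mCRS 16, with 14 counts, a library that held 990 counts of Oxt and 952 of Avp. In the PFC Cartpt ranged from 0 through 0.894 to 25.1 CPM in CTR and from 0 through 0.426 to 79.1 CPM in mCRS mice, with a count in 20 of 30 libraries. The NAc libraries above that PFC maximum numbered 26 of 32. The pooled ratio was 14.03, and 13.97 without the library labelled NAc CTR 7, where Cartpt stood at 153 CPM, close to the group median. Its highest library in the NAc by counts, NAc CTR 11, held only 8.43% of all Cartpt counts.

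**Figure D1:**
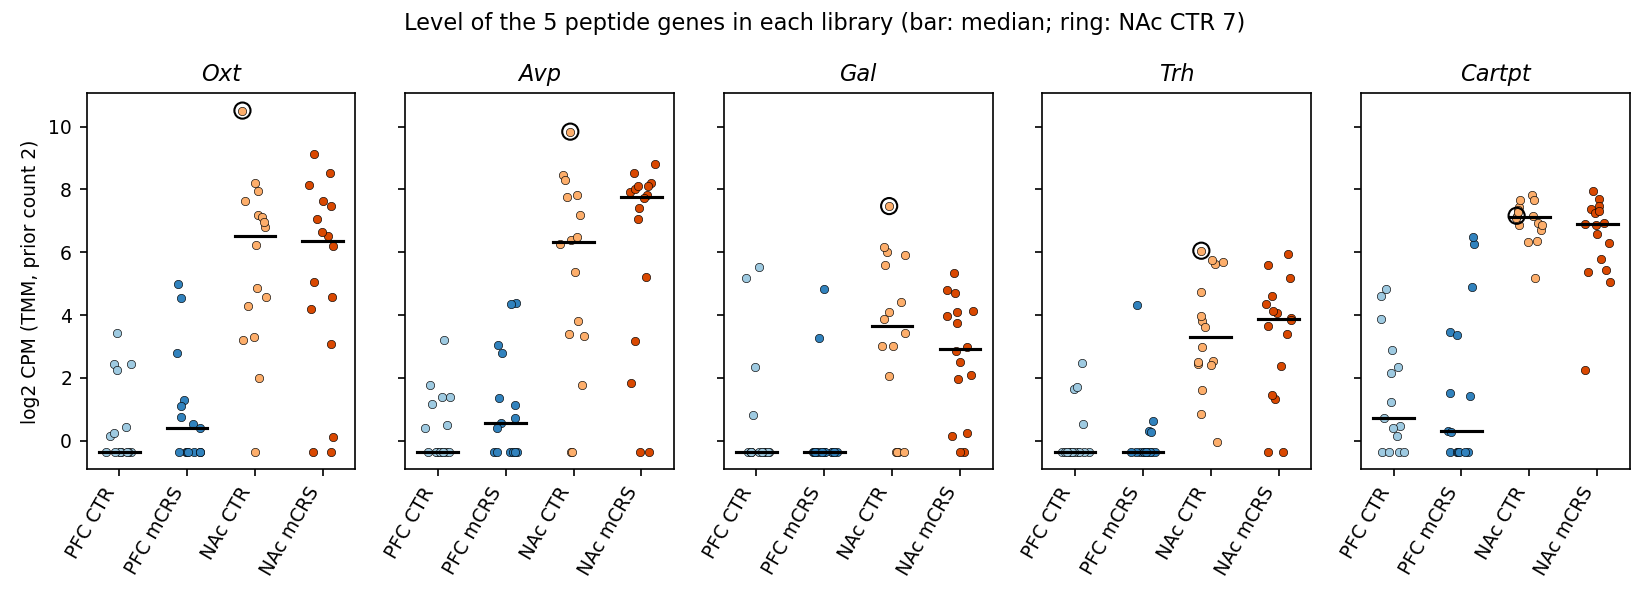
Level of each peptide gene in every library, as log2 CPM after TMM scaling with a prior count of 2; each point is a library, bars are group medians and the ring marks the library labelled NAc CTR 7. Oxt and Avp spread over the whole axis in the NAc, whereas Cartpt spread less than they did there, and the PFC medians lay near the lower limit.

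The width of these distributions set the members apart. Across the 32 NAc libraries the standard deviation of log2 CPM (TMM scaling, prior count 2) was 2.90 for Oxt and 3.12 for Avp, where the 500 genes nearest to each in mean level had a median of 1.37 and 1.27. None of those 500 genes varied more, in either case. Gal, with 2.28 against a median of 2.14, varied more than 74.2% of the genes of like level. Trh, with 1.84 against 2.12, varied more than only 11.2% of them. Cartpt, with 1.12 against a median of 0.794, varied more than 88.4% of the genes of like level. Within groups, Cartpt was narrowest in NAc CTR, at 6.99 ± 0.651 log2 CPM (SD, n = 16), against 6.41 ± 1.41 in NAc mCRS (SD, n = 16). For Oxt the corresponding values were 5.66 ± 2.73 in CTR and 5.23 ± 3.14 in mCRS (SD, n = 16 each).

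Oxt and Avp rose and fell together. Over the 32 NAc libraries, Pearson's r of their log2 CPM was 0.87 and Spearman's rho 0.84. It was 0.87 within CTR and 0.90 within mCRS libraries, 0.87 without the 2 libraries farthest from the Oxt median, and 0.86 without the library labelled NAc CTR 7. In the 30 PFC libraries, where most counts were below 10, r was 0.65 and fell to 0.45 without the 2 farthest libraries. The points of these correlations share a library, its depth and its dissection, and r with the log2 library total was 0.28 for Oxt and 0.15 for Avp. The pair did not keep a fixed proportion. Among 25 NAc libraries with at least 10 counts of each, the ratio of Oxt to Avp counts had a median of 0.674 and ran from 0.103 in NAc mCRS 10 to 3.04 in NAc CTR 15, with 7 libraries over 1.

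Gal followed the pair loosely. Its r was 0.50 with Oxt (rho 0.46) and 0.50 with Avp (rho 0.51), and 0.44 and 0.46 without the library labelled NAc CTR 7. In that library Gal stood at 434 counts beside 3579 of Oxt and 2249 of Avp, whereas NAc mCRS 6 held 0 counts of all 3. NAc CTR 10 and NAc mCRS 3 likewise held no Gal, but neither did NAc CTR 2, with 206 counts of Oxt and 80 of Avp, NAc CTR 9, with 35 and 51, or NAc CTR 14, with 89 and 46.

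Trh differed from the other members between the groups. In the CTR libraries of the NAc it rose with Oxt (r = 0.60, rho = 0.71), Avp (r = 0.76, rho = 0.78) and Gal (r = 0.72, rho = 0.71). In the mCRS libraries r was -0.06, -0.26 and -0.29 in the same order (rho 0.04, -0.04 and -0.30, n = 16). Leaving out any 1 library left r with Avp between 0.69 and 0.81 in CTR and between -0.39 and -0.07 in mCRS. The last of these was reached without NAc mCRS 6, which held 65 counts of Trh and none of Oxt or Avp. The difference between the groups was not tested. Over all 32 libraries r of Trh was 0.24 with Oxt (rho 0.38), 0.23 with Avp (rho 0.36) and 0.28 with Gal (rho 0.28). Without the library labelled NAc CTR 7 these were 0.17, 0.18 and 0.20, and r with Oxt in CTR libraries was 0.51.

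Cartpt did not rise with the hypothalamic pair. Its r was -0.26 with Oxt (rho -0.33) and -0.27 with Avp (rho -0.43), and -0.30 with each without the library labelled NAc CTR 7. The r with Oxt was -0.16 without the 2 libraries farthest from the Oxt median, and -0.20 without NAc mCRS 16, the library of lowest Cartpt. With Gal r was 0.00 and with Trh -0.03. Neither depth nor the share of genes detected went along with Cartpt, at r = -0.02 and r = -0.07. With the share of genes detected r was 0.36 for Oxt, 0.25 for Avp, 0.27 for Gal and -0.13 for Trh.

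**Figure D2:**
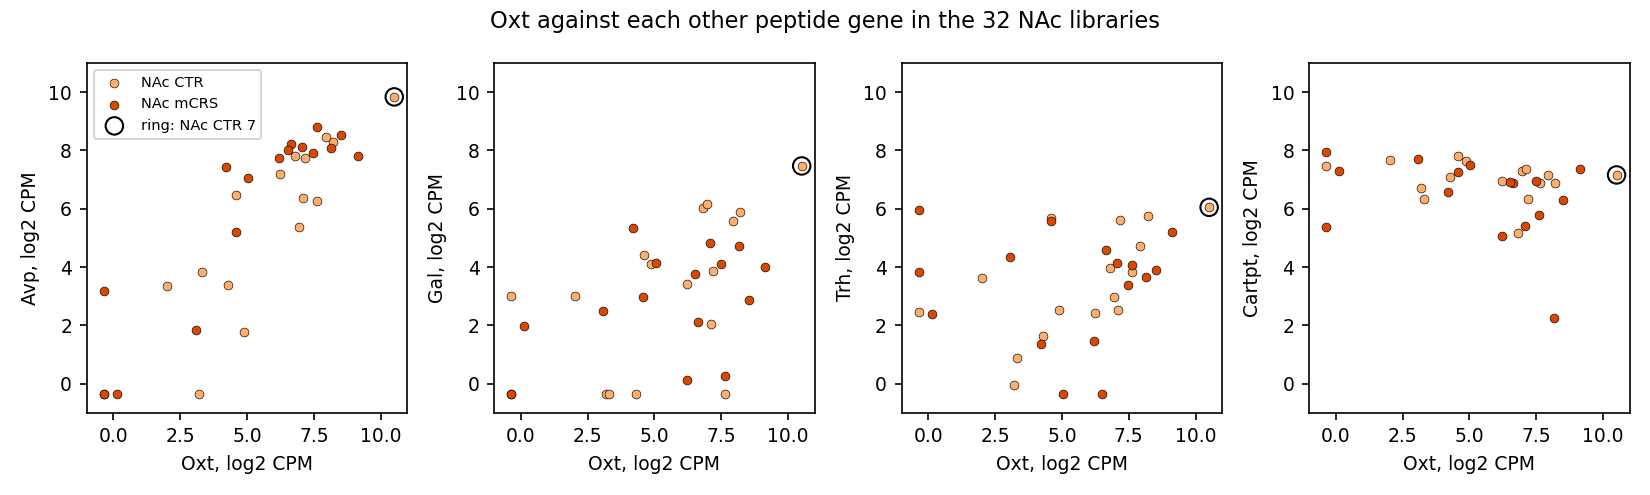
Oxt against Avp, Gal, Trh and Cartpt over the 32 NAc libraries, all as log2 CPM; each point is a library, coloured by treatment, and the ring marks the library labelled NAc CTR 7. Avp climbed with Oxt (r = 0.87), Gal less closely (r = 0.50), Trh in CTR libraries mainly, and Cartpt did not climb with Oxt (r = -0.26).

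To see what the members went along with, log2 CPM was correlated with that of 11101 other genes over the NAc libraries. With Oxt the highest r belonged to Sparc, an extracellular matrix protein of glia (0.84), then to Calb2, the calcium-binding protein calretinin (0.74), Prlr, the prolactin receptor (0.73), Gfap, an intermediate filament of astrocytes (0.73), and Wsb1 (0.71). The lowest belonged to Ngef (-0.74), Tac1, the substance P precursor of striatal direct-pathway neurons (-0.72), and Phactr1 (-0.70). Avp had Prlr (0.79), Sparc (0.77), Resp18, a protein of endocrine secretory granules (0.72), Gnas, a stimulatory G protein (0.71), and Itih3 (0.69) at the top. Tctn1 (-0.69), Tac1 (-0.69) and Celf5 (-0.65) lay at its bottom. Sparc and Prlr at the top and Tac1 at the bottom were thus named for both genes. Prlr is also a choroid plexus gene, and its highest value, 217 CPM, was in NAc mCRS 10; without that library its r was 0.80 with Oxt and 0.80 with Avp. Without the library labelled NAc CTR 7, r with Oxt was 0.83 for Sparc and 0.71 for Prlr.

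None of the 5 genes most like Gal, Trh or Cartpt was among those named for the pair. Some of them were scarce, with NAc medians of 1.24 CPM for Phactr4, 1.64 CPM for Gm973 and 0.378 CPM for Gstm4. For Gal they were Ints11 (0.62), Ttc9 (0.61), Phactr4 (0.61), Tent5a (0.60) and Gm973 (0.59), with Kcnh4 (-0.71), Mef2c (-0.58) and Lztr1 (-0.57) at the other end. For Trh they were AW551984 (0.63), Eif3f (0.60), Arfrp1 (0.59), Oprl1, the nociceptin receptor (0.59), and Gstm4 (0.58), with Gpr75 (-0.61), Fam81a (-0.60) and Sertad4 (-0.58) lowest. For Cartpt they were Shprh (0.62), Ss18l2 (0.60), Llgl1 (0.54), Aar2 (0.54) and Xkr6 (0.54), and Zfp712 (-0.56), Slc2a5 (-0.56) and Mettl9 (-0.55) lay lowest. Without the 2 libraries farthest from the Cartpt median, r fell to 0.36 for Ss18l2 and was -0.09 for Zfp712. An r above 0.5 was reached by 220 genes for Oxt, 128 for Avp, 58 for Gal, 16 for Trh and 14 for Cartpt.

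A list of regulators, receptors and other genes rich in hypothalamic neurons was set beside the members. The table held 27 of its 48 genes, and defining ones such as Sim1 and Otp were not analysed here. With Oxt, 24 of the 27 had an r above 0, with a median of 0.39 against 0.08 over all genes. Calb2, Prlr, Nnat (neuronatin, 0.68) and Ndn (necdin, 0.66) were highest. Six3 (-0.08), Lhx8 (-0.05) and Pgr (-0.03) lay below 0, and Nkx2-1 was at 0.09, or -0.01 without the library labelled NAc CTR 7. Above the 95th percentile of all genes lay 13 of the 27 with Oxt, 10 with Avp, 10 with Gal, 4 with Trh and 2 with Cartpt. The median was 0.31 with Avp, 0.28 with Gal, 0.11 with Trh and -0.08 with Cartpt, beside 0.05, 0.06, -0.03 and -0.02 over all genes. The mean log2 CPM of the list had an r of 0.80 with Oxt (rho 0.76, 0.75 without the 2 farthest libraries), 0.69 with Avp (rho 0.79), 0.55 with Gal (rho 0.44), 0.20 with Trh (rho 0.33) and -0.12 with Cartpt (rho -0.18). Without the library labelled NAc CTR 7, where this list mean was highest, these values were 0.77, 0.66, 0.48, 0.12 and -0.16. Summed over the list without Peg3, which reached 17699 CPM in PFC mCRS 3 and at most 479 CPM in the other PFC libraries, levels ran from 1757 to 7364 CPM in the NAc and from 872 to 1682 CPM in the PFC.

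Other hypothalamic peptide genes were mostly less like the pair. Besides the members, Tac2 (neurokinin B), Vip, Adcyap1 (PACAP), Nts (neurotensin), Nucb2 and Crh were compared, with r from -0.08 to 0.34 with Oxt. Tac2 was highest with Oxt (0.34) and had an r of 0.50 with Avp, as high as that of Gal with Avp, and Vip was more abundant in the PFC (median 82.5 CPM) than in the NAc (median 7.14 CPM). Pmch, Pomc, Agrp and Hcrt, which mark other hypothalamic nuclei, were not analysed here.

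Genes that mature and release peptides moved with Oxt in part. Of 18 measured, 15 had an r above 0 with Oxt, with a median of 0.15 against 0.08 over all genes. The mean of this list had an r of 0.66 with Oxt (rho 0.57) and 0.58 with Avp (rho 0.51). With Oxt it was 0.42 within CTR and 0.81 within mCRS libraries. Only 4 of the 18 lay above the 95th percentile of all genes, and Furin (-0.43), Cpe (-0.21) and Ptprn (-0.19) lay below 0. The highest were Cadps2, which primes dense-core vesicles (0.67), Pcsk1n, which encodes the inhibitor proSAAS (0.61), Pcsk1, a prohormone convertase (0.51), and Pam, the enzyme that amidates peptides such as oxytocin and vasopressin (0.43). Among receptors and degrading enzymes, Trhr, a receptor of TRH, had an r of -0.11 with Trh, and Trhde, which degrades TRH, an r of 0.23 with Trh. Lnpep, the oxytocinase, had an r of -0.10 with Oxt. Pgpep1 and Prep, peptidases that can cleave TRH, had an r of -0.24 and -0.12 with Trh. The receptors of oxytocin, vasopressin and galanin were not analysed here.

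Striatal genes went the opposite way to Oxt and Avp. Of 27 genes of striatal projection neurons, 1 had an r above 0 with Oxt, Isl1, a regulator of direct-pathway neurons (0.11), and 0 had one with Avp, and the medians were -0.51 and -0.47. The mean of this list had an r of -0.62 with Oxt (rho -0.77), -0.59 with Avp (rho -0.81), -0.42 with Gal (rho -0.36) and -0.39 with Trh (rho -0.34). Without the library labelled NAc CTR 7 these were -0.64, -0.70, -0.24 and -0.31. Cartpt stood apart here, since 19 of the 27 had an r above 0 with it, with a median of 0.04. Adcy5, a striatal adenylyl cyclase (0.36), Isl1 (0.33), Drd2, the dopamine receptor of indirect-pathway neurons (0.29), and Tmem158 (0.28) were highest. Its r with the striatal mean was 0.13 (rho 0.45) and became 0.32 without the library labelled NAc CTR 7, with 22 of 27 genes above 0 and a median of 0.15. Cartpt was thus present wherever the label NAc stood, and within the NAc followed the striatal mean only loosely.

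Glia and neighbouring regions moved with the hypothalamic pair as well. The mean of 10 astrocyte genes had an r of 0.71 with Oxt (rho 0.62) and 0.68 with Avp (rho 0.73), or 0.70 and 0.66 without the library labelled NAc CTR 7. Of the 10, 7 had an r above 0 with Oxt. In that list Gfap, Agt, the angiotensinogen gene (0.61), Slc1a3 (0.49) and Gja1 (0.44) were highest with Oxt, and Slc1a2, the main glutamate transporter of astrocytes, was lowest (-0.38). Agt belongs to the hypothalamic list too. For 12 genes of myelinating oligodendrocytes the r of the mean was 0.41 with Oxt and 0.49 with Avp, led by Mbp (0.60) with Oxt, and for 12 genes of the septum, preoptic area and cholinergic basal forebrain it was 0.59 and 0.53, led by Prlr and Ngfr (0.69) with Oxt. The thalamic list, which shares Calb2 and Slc17a6 with the hypothalamic one, had an r of 0.48 with Oxt. The ependymal list had 0.47 over 4 genes. The cortical list had -0.17 over all NAc libraries, -0.06 without the library labelled NAc CTR 7, -0.48 within CTR and 0.13 within mCRS libraries. The choroid plexus list had 0.04, 0.08, -0.49 and 0.32 in the same order. With Cartpt the means of all these lists had an r between -0.28 and 0.03. The part that each of these cell types had in the levels of the members was not tested.

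**Figure D3:**
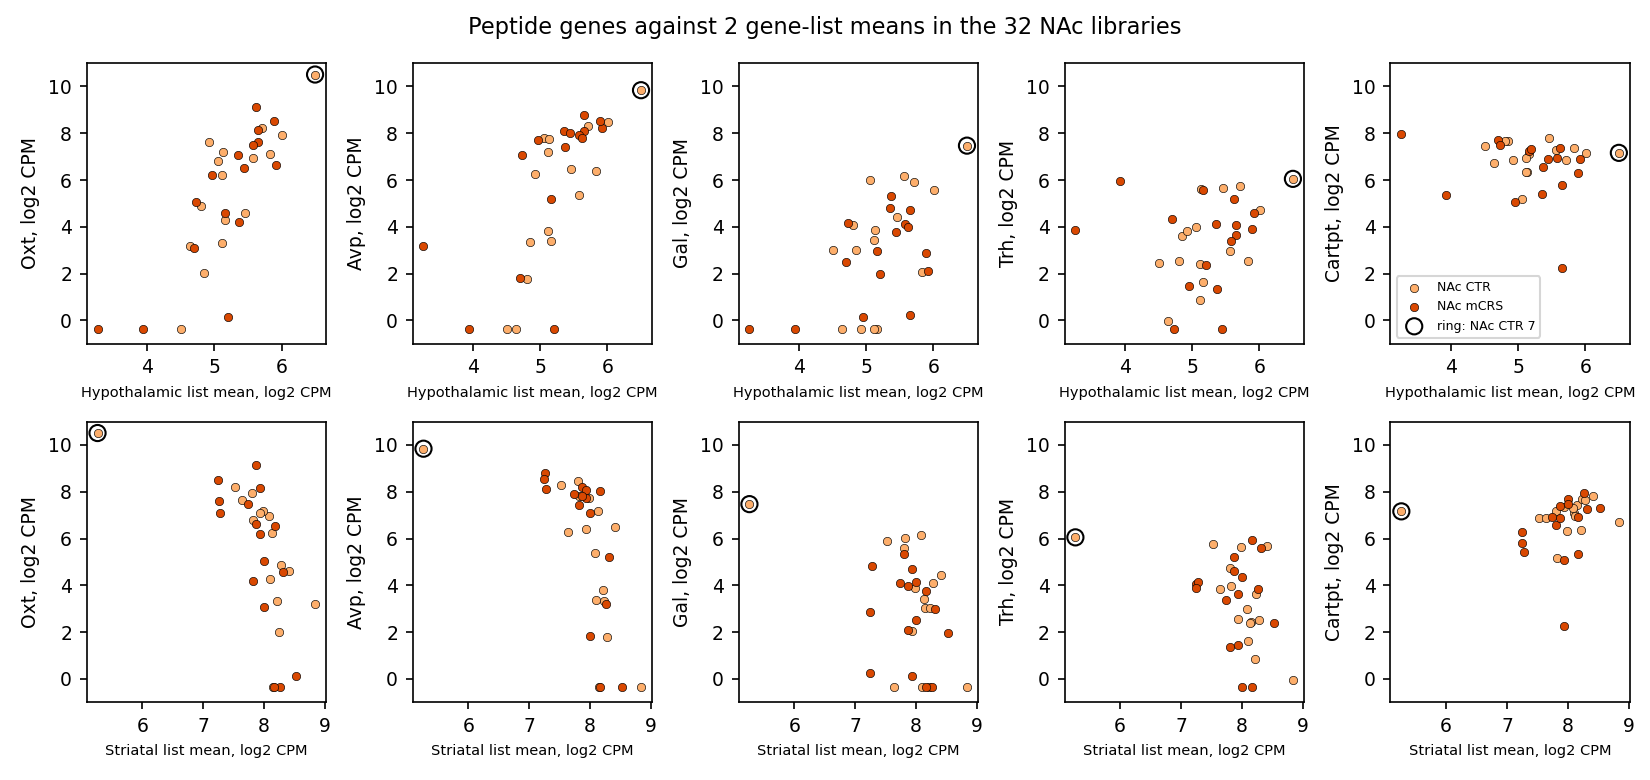
Each peptide gene (vertical axis, log2 CPM) against the mean log2 CPM of 27 hypothalamic genes (upper row) or 27 striatal genes (lower row) in the 32 NAc libraries; the ring marks the library labelled NAc CTR 7. Oxt and Avp climbed along the hypothalamic mean (r = 0.80 and 0.69) and fell along the striatal mean (r = -0.62 and -0.59). Cartpt did not climb along the hypothalamic mean (r = -0.12). Along the striatal mean its r was 0.13 (rho 0.45), and 0.32 without the ringed library.

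**Figure D4:**
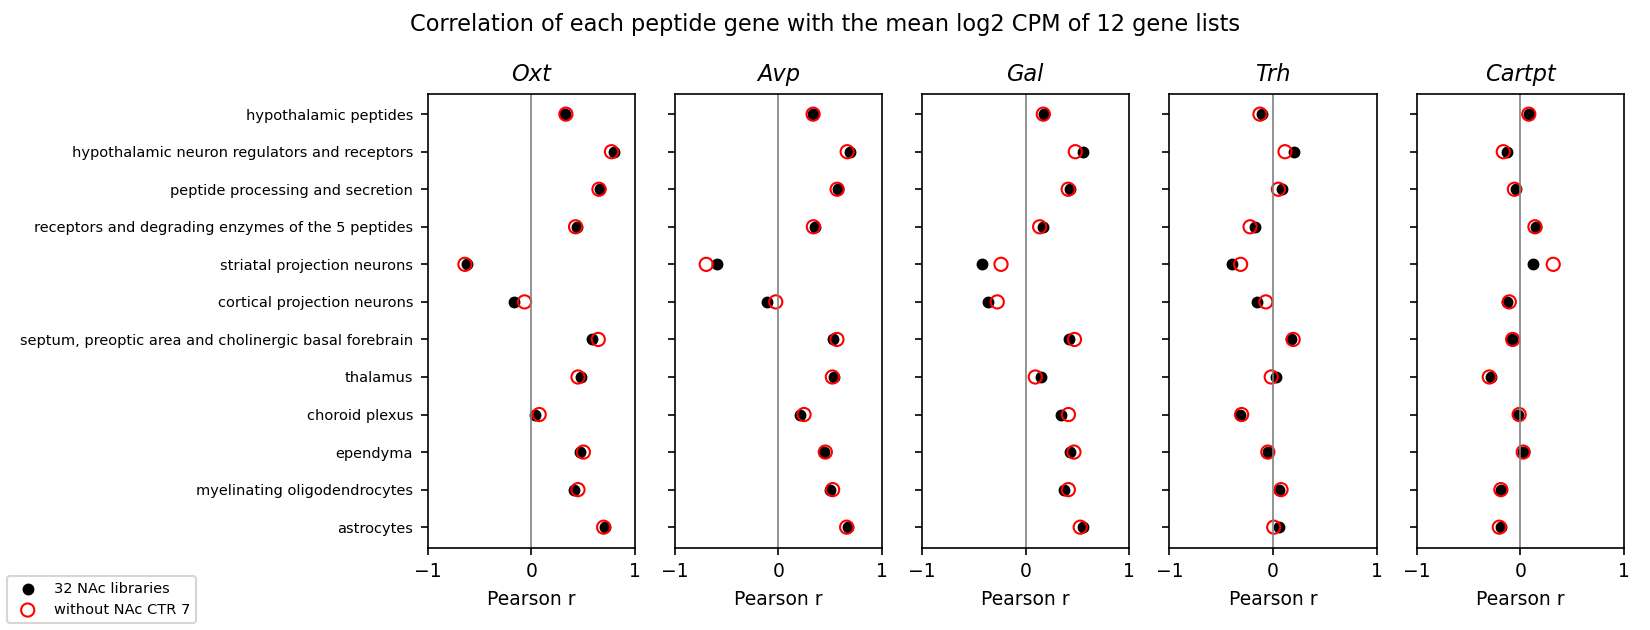
Pearson r of each peptide gene with the mean log2 CPM of 12 gene lists over 32 NAc libraries (black) and over 31 without the library labelled NAc CTR 7 (red rings); list means leave out the members. For Oxt and Avp the hypothalamic and astrocyte means lay farthest to the right (0.80 and 0.71, 0.69 and 0.68) and the striatal mean farthest to the left, and the values of Cartpt lay between -0.28 and 0.15 over 32 libraries and between -0.30 and 0.32 over 31.

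The test of stress asked whether mCRS altered these transcripts 4 days after the last session, a contrast on which the choice of the genes did not rest. In the NAc, 0 of the 5 members passed an FDR of 0.05 in edgeR's quasi-likelihood test, where 0.00986% of 10141 genes did, that is Ttr alone. At an unadjusted p below 0.05 the members again numbered 0, beside 2.04% of all genes. The log2 fold change of Oxt, mCRS minus CTR, was -0.48 (SE 0.61, p = 0.436), that of Avp 0.24 (SE 0.60, p = 0.691) and that of Trh -0.18 (SE 0.74, p = 0.814). That of Cartpt was -0.27 (SE 0.29, p = 0.351). Gal had the largest change of the 5, -1.46 (SE 0.82, p = 0.0808), and the adjusted p was 0.99995 for all 5. The library labelled NAc CTR 7 carried much of these values. Without it the log2 fold change of Oxt turned to 0.46 (SE 0.58), that of Trh to 0.08 (SE 0.77), that of Avp rose to 0.82 (SE 0.59), that of Gal was -0.91 (SE 0.86) and that of Cartpt -0.26 (SE 0.30), again with no adjusted p below 0.05. Given these standard errors, a change of 2-fold in Oxt, Avp, Gal or Trh lay within 2 standard errors of 0 and could not have been told from the spread between libraries.

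**Figure D5:**
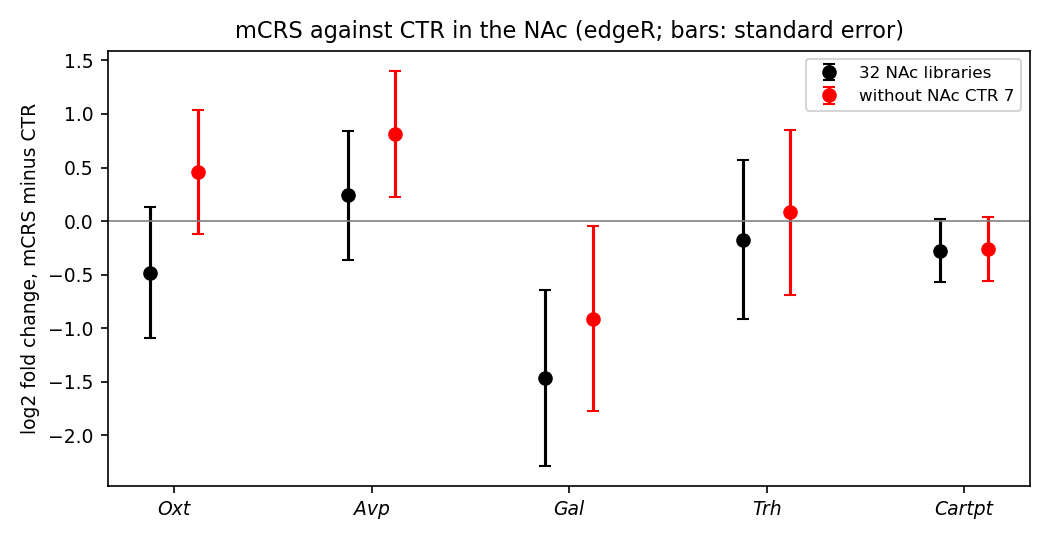
Log2 fold change of each peptide gene in the NAc, mCRS minus CTR, from edgeR with all 32 libraries (black) and without the library labelled NAc CTR 7 (red); bars are standard errors. The value of Oxt moved from -0.48 to 0.46 and that of Cartpt from -0.27 to -0.26.

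In the PFC none of the 5 members passed the filter on low counts, so none was among the 8916 genes tested there, of which 0% passed an FDR of 0.05 (312 of them, or 3.5%, at an unadjusted p below 0.05, and DESeq2 called 5). The difference of mean log2 CPM between mCRS and CTR libraries was therefore compared by two-sided permutation tests, each of 1 gene with 15 libraries a group, with TMM scaling over the PFC libraries alone. It was 0.35 for Oxt (p = 0.533), 0.63 for Avp (p = 0.223), -0.41 for Gal (p = 0.523), -0.05 for Trh (p = 0.917) and 0.25 for Cartpt (p = 0.749) before any adjustment. PFC mCRS 14 held the highest PFC level of Oxt, Avp and Cartpt, with 59, 38 and 170 counts, and 0 counts of Trh. Differences between the groups were not detectable at these low counts.

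The mCRS effect was also compared between the regions, as the interaction of region and treatment. All 5 passed the filter over both regions through the NAc libraries where they are high, none having passed it in the PFC alone, so the PFC side of each value rests on libraries with few or 0 counts. Here 0 of 5 members passed an FDR of 0.05, beside 0.00907% of 11025 genes, and 0 had an unadjusted p below 0.05, beside 3.09%. The NAc effect minus the PFC effect was -1.67 on the log2 scale for Cartpt (SE 0.88, p = 0.0615), -1.84 for Oxt (SE 1.08, p = 0.0920), -1.43 for Avp (SE 1.04, p = 0.174), -1.12 for Trh (SE 1.38, p = 0.418) and -0.24 for Gal (SE 1.68, p = 0.885), each with an adjusted p of 0.99997 in edgeR. Single libraries carried part of these values. Without the library labelled NAc CTR 7 they were -1.65, -0.88, -0.83, -0.88 and 0.33 in the same order of genes, and without PFC mCRS 14 they were -1.01, -0.96, -0.82, -1.22 and 0.11.

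Among the gene lists, the 1 gene past an FDR of 0.05 in the NAc was Ttr, of the choroid plexus. Of 6 genes of that list tested, Ttr and Enpp2 were higher at an unadjusted p below 0.05 and all 6 fold changes were above 0, with a median of 0.52, and Ttr was no longer called without NAc mCRS 10. Of 23 hypothalamic regulators and receptors tested by edgeR, 0 passed an FDR or an unadjusted p of 0.05, with a median log2 fold change of -0.08 against -0.01 over all genes. The 16 processing genes had 0 and a median of 0.04, and the 5 other hypothalamic peptide genes had 0 and a median of 0.36. Of 27 striatal genes 1, Bcl11b, was lower at an unadjusted p below 0.05 and 0 passed the FDR, with a median of -0.04. Of 10 astrocyte genes 1, Slc1a3, was lower at an unadjusted p below 0.05. Of 13 cortical genes 1, Slc30a3, and of 12 oligodendrocyte genes 1, Cldn11, were higher at that level. The lists of receptors and peptidases, septum, thalamus and ependyma had 0 such genes among 3, 7, 7 and 4 tested.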

How the data were processed

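BRB-seq libraries, a 3′ method that tags the RNA of every sample with its own primer barcode before pooling, were made from 16 NAc CTR, 16 NAc mCRS, 15 PFC CTR and 15 PFC mCRS tissue samples. The authors mapped reads to GRCm38 with STAR and counted uniquely mapped reads with htseq (HTSeq 0.9.1 in the submitters' processing notes), and the deposited values are unnormalized counts for 11121 genes. Depth was 945286 to 4857359 counts per library.

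Symbols came from a gene name table, which matched 11120 of the identifiers. mCRS was compared with CTR in each region, and the effect between regions, with edgeR 4.0.16 (R 4.3.3), TMM scaling, filterByExpr on the groups and quasi-likelihood tests, with Benjamini-Hochberg adjustment over all genes tested. P-values measure the spread between libraries, taken as independent. Permutation tests used 100000 resamples. Levels are counts over the library total (CPM), while log2 CPM used TMM scaling and a prior count of 2. Genes were compared with the members where at least 8 NAc libraries and at least 50 NAc counts held them. DESeq2 1.42.0, RLE scaling, no filter, a replicate block and single libraries left out were alternatives. The scripts were tested on simulated data.

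The members and gene lists were chosen with earlier results of these data known. Genes named are the members, per member the 5 other genes of highest and the 3 of lowest r over NAc libraries, up to 4 genes a list with the highest r with Oxt or Cartpt, and the receptors and peptidases of the peptides. Drd1, Penk, Slc17a7, Ttr, Peg3, Bcl11b, Enpp2, Slc30a3, Cldn11, Slc1a2 and the Slc1a3 test value were named after their values were seen, as was Vip's level.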

Additional observations from a re-analysis of the deposited data

How the results depend on the processing

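No member passed an FDR of 0.05 under any setting, and counts of genes called stayed small. In the NAc, edgeR called 1 gene, DESeq2 0, no filter 2, the replicate block 0 and libraries numbered 1 to 8 alone 0, and leaving out each library gave 0 to 1, with 0 without NAc mCRS 10 and without most single CTR libraries. In the PFC the count of 0 became 5 in DESeq2 and 1 without the filter, with the replicate block or with libraries numbered 1 to 8 alone, and 0 to 2 with libraries left out in turn. Same-numbered CTR and mCRS libraries of a region come from different mice, so the block is no pairing by mouse. Their deviations had r from -0.04 to 0.04 in the NAc, where 2 of 16 correlated best with their own number. In the PFC r ran from -0.03 to 0.07, and 1 of 15 did so. Whether the PFC and NAc libraries of a mouse deviate together was not tested.

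Directions of member changes in the NAc rested on few libraries. With libraries left out in turn, log2 fold changes ran from -0.85 to 0.46 for Oxt, 0.10 to 0.82 for Avp, -1.72 to -0.91 for Gal, -0.44 to 0.0820 for Trh and -0.39 to -0.18 for Cartpt. Besides the library labelled NAc CTR 7, NAc CTR 16 turned Trh (0.0040). Trh was 0.0165 with the replicate block and 0.19 with libraries numbered 9 and above alone, where Oxt was 0.15; numbered 1 to 8 alone, Avp was -0.28. For the difference between regions, Gal was 0.11 without PFC mCRS 14 and 0.33 without NAc CTR 7, both settings chosen after seeing the data. In the PFC Gal was 0.85 in DESeq2 and Trh 0.94 without the filter. The causes were not tested.

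The r of Oxt and Avp was 0.93 in libraries numbered 1 to 8, 0.81 in those numbered 9 and above and 0.85 to 0.89 with each left out. All 10 member correlations moved by less than their leave-one-out standard error with a prior count of 0.5, without TMM, without the 2 farthest libraries and, chosen after seeing the data, with the library total held fixed. In other settings some moved further. These were 4 of the 10 in libraries numbered 1 to 8, 5 in those numbered 9 and above, 3 within CTR, 3 within mCRS and 1 with Spearman's rho. Values without the library labelled NAc CTR 7 for levels and lists, and the ranges within CTR and mCRS, were also chosen after seeing the data. Low counts limit the PFC values most, where most members had few or 0 counts.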
